A study of Mus musculus with 18 samples.

Results

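Resting BV-2 cells, an immortalized mouse microglial line, were compared after THC (delta-9-tetrahydrocannabinol) and without it, in 3 THC samples (numbered 25, 31 and 37) and 3 Ctrl samples (22, 28 and 34) of the 18 small RNA libraries of the series. The THC cells received 10 μM THC, 6 h in all by the study's methods, and no LPS. The cannabinoid stock was dissolved in ethanol, and the control is called untreated, with no statement that it received the same ethanol. The other 4 groups, also of 3 samples each, received 10 μM CBD (cannabidiol), LPS (lipopolysaccharide, a bacterial cell wall component, 100 ng/ml for the last 4 h), or one of the cannabinoids together with LPS. All samples are of the same line, and the labels do not say that samples of a group came from separate cultures, so p-values measure the spread between these samples, which may be technical. The files list 855 hairpins (mir in their names) and 1279 mature miRNAs (miR) as separate features, 2134 in all. The 1363 of them whose reads in the 18 samples summed to 10 or more were compared.

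A miRNA is cut from a hairpin precursor into a mature strand, named for its 5p or 3p arm, which is loaded into an Argonaute protein and pairs with mRNAs mainly through its seed, bases 2 to 8. miRNAs that share a seed are treated as a family because they can pair with the same sites. THC is a partial agonist of the cannabinoid receptors CB1 and CB2, the latter being the main receptor of immune cells. In microglia, the macrophages of the brain, miR-155, miR-146a and miR-21 are known to respond to Toll-like receptor signaling, miR-155 as a promoter and miR-146a as a brake of the inflammatory response. The comparison asks whether THC by itself moved any of these or other miRNAs in cells that were not activated.

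The mature sequences of the 5 mature miRNAs that passed the criterion explained below are shown first, because they carry every call of the comparison but 1, a hairpin. They are from RefSeq on GRCm38.p6, 5′ to 3′, with the seed in capitals.
miR-1897-3p: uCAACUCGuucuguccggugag
miR-21b: uAGUUUAUcagacugauauuucc
miR-1962: aGAGGCUGgcacugggacacau
miR-5123: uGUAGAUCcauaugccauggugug
miR-127-3p: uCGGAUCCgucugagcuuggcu
No pair of them shares a seed. Next to them stand miR-21a-5p, the abundant relative of miR-21b, and miR-141-3p, the abundant product of the sixth called feature, the mir-141 hairpin.
miR-21a-5p: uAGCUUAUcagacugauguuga
miR-141-3p: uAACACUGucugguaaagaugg
Over their first 22 bases miR-21a-5p and miR-21b are identical at 18, and differ, with positions counted from the 5′ end and the base of miR-21a-5p first, by C4U, G18A, G21U and A22C. The first of these lies in the seed, so that the 2 miRNAs fall into different families.

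By RefSeq and GENCODE M21 on GRCm38, the Mir1897 hairpin (chr3:34638464-34638542, plus strand) lies in an exon of the long noncoding RNA Sox2ot. Mir21b (chr3:29636744-29636851, plus strand) lies in an intron of Egfem1, Mir1962 (chr7:135566162-135566282, plus strand) in an intron of Ptpre, and Mir5123 (chr4:40850056-40850138, minus strand) in an intron of B4galt1, each on the strand of its host. Mir127 (chr12:109592846-109592915, plus strand) lies opposite an exon of the imprinted gene Rtl1. Mir141 (chr6:124717914-124717985, minus strand) overlaps an exon of the annotated transcript Gm29008 and an intron of Gm15884.

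The 6 libraries held between 442718 and 858551 reads, and 3 reads, taken as the floor for counting error, stood for 2.98 to 6.38 CPM (reads scaled by the library total and by TMM factors). Every Ctrl library (442718, 595482 and 760136 reads) was shallower than every THC library (782757, 858551 and 773020 reads). The myeloid miRNAs were present, with miR-142-5p between 7254 and 9826 CPM and miR-223-3p between 59.7 and 178 CPM, and the summed level of the 4 myeloid entries was 8977 to 11920 CPM in Ctrl and 11020 to 12510 CPM with THC. The neuronal miR-124-3p had no read in the 6 samples, and the hepatic miR-122-5p had 2. Other neuronal entries were present. All 11 summed to 646 to 821 CPM in Ctrl and 589 to 669 CPM with THC, most of it miR-128-3p at 446 to 651 CPM. The 14 epithelial entries summed to 6884 to 8313 CPM in Ctrl and 6327 to 9414 CPM with THC, nearly all of it miR-141-3p, which at 6042 to 8978 CPM had a level similar to that of miR-142-5p in this myeloid line. Its source was not tested. The samples of each group differed by more than sampling noise, with 9.73 to 98.6 for chi-square over its degrees of freedom. Ctrl sample 22, the shallowest library, stood apart: its Spearman correlation across features with the other 5 was 0.789 to 0.829, against 0.891 to 0.906 among those 5. In it, 132 features had no read that had reads in each of the other 5 libraries, 18 of them with a mean of at least 20 CPM there, while this was so for no feature of that level in any other library. The hairpins mir-6243, mir-6240 and mir-6236 took 0.2035% of its reads, against 3.81% and 2.41% in the other Ctrl samples and 4.56%, 2.77% and 1.80% in the THC samples. Each list below is therefore given with and without this sample, as are the features that it moved most. THC sample 25 differed from the rest as well, to a lesser degree. Of all 18 samples it had the most features with a read (1494) and the highest TMM factor (1.29). Across the 472 features of at least 20 CPM, the SD of its log2 ratios to samples 28, 31, 34 and 37 was 0.64 to 0.85. Among those samples this SD was 0.36 to 0.59. Apart from Ctrl sample 22, the 6 samples numbered 22 to 27, 1 of each group, differed from the 12 numbered 28 to 39 in some miRNAs, as in miR-210-3p, at 180 to 272 CPM in the former and 911 to 2493 CPM in the latter. The labels give no batch for these numbers. Differences are given as THC minus Ctrl on the scale of log2(CPM + 1), with ± for the standard error of the fit, unless another pair of groups is named.

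Few features passed the study's criterion between THC and Ctrl, and none of the abundant ones did. That criterion was a p no higher than 0.005 (taken as unadjusted) together with 1.5-fold or more. By it 6 of the 1363 features were called with limma, which is 0.440% of those tested. The 4 called higher with THC (0.293%) were miR-1897-3p, miR-21b, miR-1962 and the mir-141 hairpin, and the 2 called lower (0.147%) were miR-5123 and miR-127-3p. With library size alone or RLE factors in place of TMM the split was 4 higher and 1 lower, and with scaling to miR-103-3p and miR-191-5p it was 4 and 0. No feature reached a Benjamini-Hochberg adjusted p of 0.1 over all 1363, the smallest being 0.524 by limma, and 46 features (3.37%) had an unadjusted p under 0.05. Over all levels pooled, the shares of 0.440% and 3.37% are no larger than p thresholds of 0.005 and 0.05 give when nothing differs. They were uneven over the levels. Of the 620 features with a mean under 5 CPM over the 6 samples, 6 were called and 37 had an unadjusted p under 0.05 (limma). Of the 271 from 5 to 20 CPM it was 0 and 6. The pooled shares therefore do not show how many calls to expect at low levels. On the reads recovered from the deposited values, edgeR's quasi-likelihood test called 1 feature, miR-1897-3p, and DESeq2 called 0, with 35 and 24 features at an unadjusted p under 0.05 and none at an adjusted p of 0.1. With a covariate for samples 22 to 27, 5 features were called, all of them among the 6, and in samples 28 to 39 alone 13 were, 2 of them among the 6, with none at an adjusted p of 0.1 in either fit (limma). Every THC sample lay above every Ctrl sample for 52 features (3.82%) and below for 41 (3.01%).

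All 6 called features were rare, with means under 5 CPM over the 6 samples. miR-1897-3p had 0, 0 and 0 reads in Ctrl samples 22, 28 and 34 and 7, 5 and 1 reads in THC samples 25, 31 and 37, that is 6.96, 5.90 and 1.35 CPM. No Ctrl library and every THC library had a read of it, although it was a single read in sample 37. Depth runs the same way for this and each called feature without a Ctrl read, since the Ctrl libraries were the shallower ones. The part of depth was not tested. With Ctrl taken at its floor of 3 reads over the group, the summed THC level was 3.20 times that floor, and the adjusted p was 0.524 in limma. This ratio leaves out the counting error of the THC reads, so neither it nor those below are lower bounds. miR-21b had 0, 0 and 0 reads in Ctrl and 4, 2 and 1 with THC, a summed level 1.72 times the same floor. For comparison, the related miR-21a-5p stood at 18555, 21046 and 20936 CPM in Ctrl and 14844, 24126 and 27020 CPM with THC, a log2 difference of 0.08 ± 0.19, so that the miR-21b call rests on 7 reads, in libraries with 8725 to 20442 reads of a sequence that differs from it at 4 of 22 positions. Whether reads of one were assigned to the other was not tested.

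The mir-141 hairpin had 0, 0 and 0 reads in Ctrl and 2, 3 and 2 with THC, a summed level 1.72 times that floor. miR-141-3p, a member of the miR-200 family known for holding epithelial cells in their state, was at 7939, 6915 and 6496 CPM in Ctrl and 6042, 8670 and 8978 CPM with THC, with overlapping groups and a log2 difference of 0.13 ± 0.18. miR-141-5p was at 0, 1.71 and 4.66 CPM in Ctrl and 5.97, 5.90 and 4.05 CPM with THC and did not pass. miR-1962 had 0, 0 and 0 reads in Ctrl and 2, 2 and 1 with THC, a summed level 1.23 times that floor. miR-5123, one of the 31 entries the study lists, had 5, 7 and 2 reads (10.6, 11.97 and 2.33 CPM) in Ctrl and 1, 2 and 0 (0.994, 2.36 and 0 CPM) with THC. Its summed level with THC was 0.158 of that in Ctrl (exact 95% interval 0.0291 to 0.567, counting error only), although Ctrl sample 34, at 2.33 CPM, lay within the range of the THC samples. miR-127-3p, from the imprinted Dlk1-Dio3 cluster, had 4, 3 and 3 reads in Ctrl and 3, 0 and 0 with THC, and its summed level was 0.221 of that in Ctrl (0.0391 to 0.860). Its hairpin, mir-127, was more abundant and did not follow, at 31.9, 37.6 and 32.6 CPM in Ctrl and 39.8, 41.3 and 32.4 CPM with THC (log2 difference 0.14 ± 0.39).

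miR-21b and miR-1962 had 10 reads each in the 18 samples, so that both passed the filter of 10 reads only through their THC reads, and nothing is read from their direction. All calls but that of mir-141 depended on single libraries. With each of the 6 samples left out in turn, mir-141 stayed past the criterion in 6 of 6 fits, miR-21b in 5, miR-1897-3p in 4, miR-5123 in 2, miR-127-3p in 1 and miR-1962 in 0. Without THC sample 25, which held 7 reads of miR-1897-3p and 4 of miR-21b, neither of these was called. For features without a Ctrl read, leaving out a Ctrl sample keeps the estimate as it was, so those fits say little of stability. The hairpins and other arms of the called mature miRNAs gave no call. The mir-21b hairpin had 0, 4 and 6 reads in Ctrl and 7, 3 and 2 with THC, mir-1897 had 0, 1 and 3 in Ctrl against 8, 3 and 0 with THC, and mir-5123 had 0, 0 and 1 against 5, 0 and 0. These counts overlapped between the groups. The CBD samples of resting cells, which share the same Ctrl samples, had 2, 1 and 2 reads of mir-141, 1, 0 and 0 of miR-1897-3p, 1, 0 and 0 of miR-21b and 0, 0 and 0 of miR-1962, so that mir-141 was the 1 of these 4 found in every CBD sample.

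The LPS and THC+LPS samples hold the same addition of THC in activated cells. Their levels did not enter the difference of THC from Ctrl, but they did enter the read filter and the estimate of the spread shared by the 6 groups. With the THC and Ctrl samples fitted alone, 2 of the 6, miR-1897-3p and mir-141, were called. miR-1897-3p was at 3.92, 2.65 and 4.12 CPM with LPS and 7.11, 2.36 and 2.29 CPM with THC+LPS, so that the groups overlapped. miR-21b was at 1.31, 0 and 1.03 CPM with LPS and 0, 0 and 0 CPM with THC+LPS, and miR-1962 at 2.62, 0 and 1.03 and 0, 0 and 0 CPM. The log2 differences of THC+LPS from LPS were -0.01 ± 0.58 for miR-1897-3p, -0.74 ± 0.45 for miR-21b, -0.96 ± 0.46 for miR-1962, -0.41 ± 0.45 for mir-141, 0.89 ± 0.64 for miR-5123 and 0.17 ± 0.62 for miR-127-3p. None of the 6 passed the criterion there. All 6 estimates had the opposite sign to those in resting cells. The 6 were picked by their difference in resting cells and rest on few reads, so nothing is read from these signs.

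How large a difference could have been seen depended on the level. Of the 620 features with a mean under 5 CPM over the 6 samples, where all 6 calls lay, the median 95% interval of the difference reached 2.7-fold to either side of the estimate, and the interval lay within 2-fold of no difference for 1 feature. Of the 163 features between 100 and 1000 CPM it did so for 107, with a median half-width of 1.54-fold, and of the 89 features of at least 1000 CPM for 80, with 1.37-fold. For these abundant miRNAs a 2-fold difference therefore lay outside the interval in most cases, whereas for the rare ones it was not detectable at this depth. None of the 252 features of at least 100 CPM passed the criterion, and their median log2 difference was 0.01 (all 1363 features, 0.08, or -0.02 without Ctrl sample 22).

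**Figure D1:**
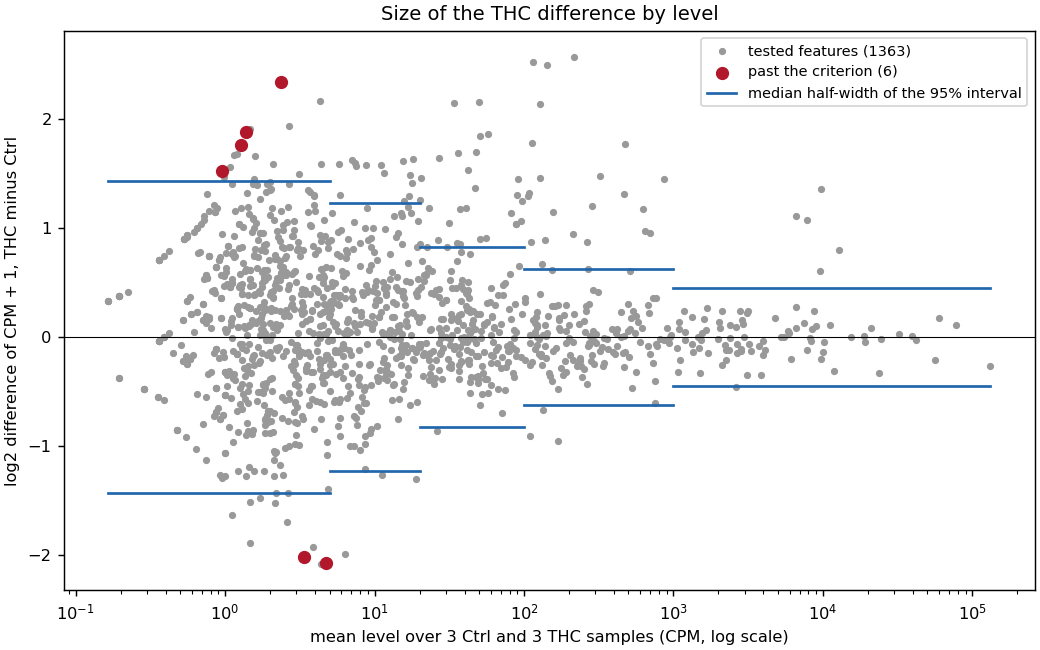
Log2 difference of CPM + 1, THC minus Ctrl, of the 1363 tested features (points) against their mean level over the 6 samples (CPM, log scale). Red points mark the 6 features past the criterion, all under 5 CPM, and blue lines the median half-width of the 95% interval in each of 5 ranges of level.

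The miRNAs that make up most of the library differed little. miR-92a-3p, of the oncogenic miR-17~92 cluster, was the most abundant mature miRNA and stood at 181562, 124809 and 129464 CPM in Ctrl and 124892, 114233 and 117552 CPM with THC, a log2 difference of -0.27 ± 0.16 (95% interval -0.61 to 0.07). Its highest value was in Ctrl sample 22, and without that sample the difference was -0.10. miR-22-3p was at 67165, 100462 and 52618 CPM in Ctrl and 42807, 100367 and 104945 CPM with THC, with a difference of 0.11 ± 0.36. Samples 34 and 25 were the lowest of their groups for miR-22-3p and likewise for miR-27b-3p, at 50411, 71318 and 44560 CPM in Ctrl and 39217, 77610 and 76455 CPM with THC, and sample 25 was the lowest of its group for miR-181a-5p, at 21865, 45953 and 22853 CPM in Ctrl and 12026, 45012 and 44585 CPM with THC. The interval of the difference was accordingly wide for miR-181a-5p, -1.26 to 1.31 on the log2 scale. For miR-191-5p, a common reference miRNA, it was -0.62 to 0.20, for miR-30d-5p -0.41 to 0.36, for miR-16-5p -0.36 to 0.38, for miR-182-5p -0.38 to 0.35, for miR-21a-5p -0.32 to 0.48 and for miR-30a-5p -0.33 to 0.24. For all 10 miRNAs the groups overlapped, and the interval of each but miR-181a-5p lay within 2-fold of no difference.

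When the reads of mature miRNAs with the same seed were summed, 516 families were tested and 5 passed the criterion (0.969%), each with the single member already named as called and together 0.00175% of the summed level. The smallest adjusted p over the 516 families was 0.345 (limma). None of the 85 families with 2 or more members passed. The 20 most abundant families held 76 members and 88.3% of the summed level, and their log2 differences ran from -0.26 to 0.18. The highest of them, led by miR-92a-3p with miR-25-3p, miR-32-5p, miR-363-3p, miR-367-3p and miR-92b-3p, shares the seed shown here in capitals.
miR-92a-3p: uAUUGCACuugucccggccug
miR-25-3p: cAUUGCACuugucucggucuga
Its level was 153900 ± 31700 CPM (SD, n = 3) in Ctrl and 127200 ± 5352 CPM with THC, a log2 difference of -0.26 (95% interval -0.60 to 0.09). The let-7 family, whose members repress growth-promoting mRNAs, was at 48430 ± 7429 CPM in Ctrl and 46680 ± 5175 CPM with THC (-0.42 to 0.33). The miR-15/16 family was at 42730 ± 3403 and 43820 ± 9068 CPM (-0.35 to 0.39).

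**Figure D2:**
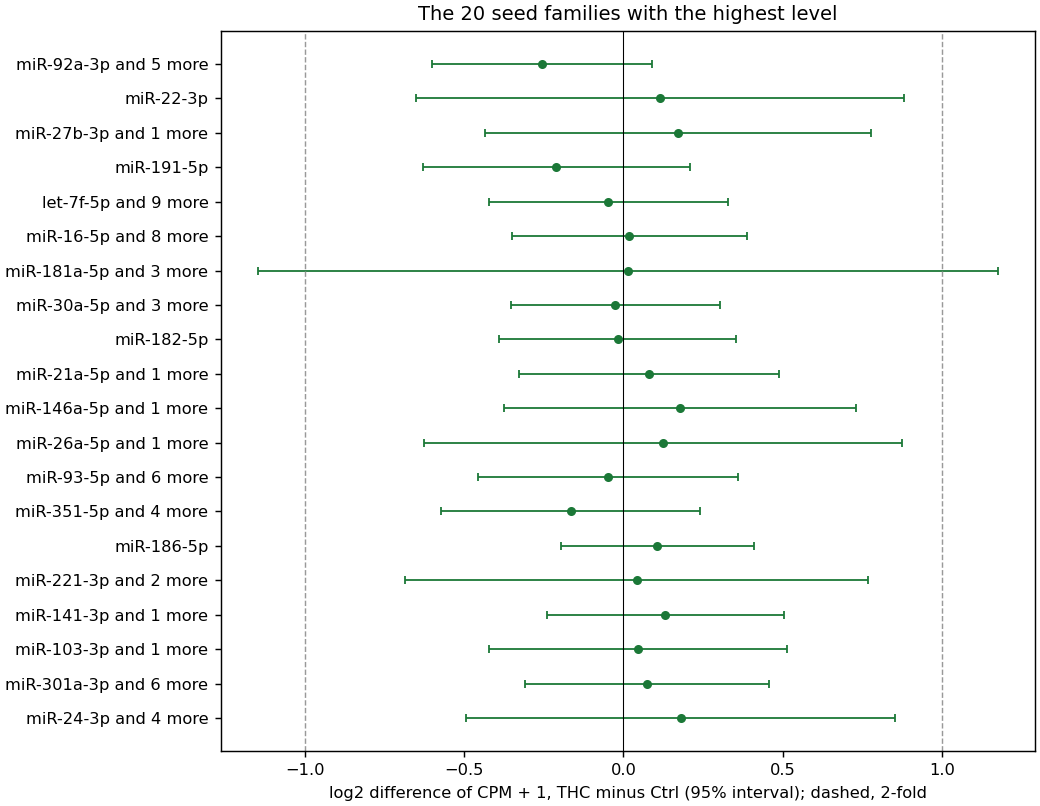
Log2 difference of CPM + 1, THC minus Ctrl, with its 95% interval (bars) for the 20 seed families with the highest level, each named by its most abundant member, with dashed lines at 2-fold. The estimates lie between -0.26 and 0.18, and 19 of the 20 intervals lie within 2-fold of no difference.

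Among the miRNAs that answer Toll-like receptor and NF-kB signaling, miR-155-5p had the smallest p of the abundant features that were lower with THC. It is encoded in an exon of Mir155hg (chr16:84714140-84714204, plus strand).
miR-155-5p: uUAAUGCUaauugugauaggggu
miR-155-3p: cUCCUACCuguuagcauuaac
miR-155-5p was at 1248, 598 and 919 CPM in Ctrl and 659, 499 and 596 CPM with THC. The THC samples were close together, and Ctrl sample 28 lay among them, so that the groups overlapped. The log2 difference was -0.60 ± 0.22, or 0.659-fold, and the adjusted p was 0.977 (limma), which does not pass. Without Ctrl sample 22 the difference was -0.35, and without Ctrl sample 28 it was -0.88 and past the criterion. The mir-155 hairpin was at 111, 51.3 and 105 CPM in Ctrl and 74.6, 50.8 and 56.7 CPM with THC (-0.48 ± 0.25) and miR-155-3p at 19.1, 8.55 and 19.8 CPM in Ctrl and 13.9, 8.26 and 10.8 CPM with THC (-0.43 ± 0.31), with Ctrl sample 28 again the lowest of its group. In activated cells the level of miR-155-5p was 8921 ± 662 CPM (SD, n = 3) with LPS and 8282 ± 567 CPM (SD, n = 3) with THC+LPS.

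miR-146a-5p, which targets adaptors of the same pathway, was at 6591, 4569 and 6634 CPM in Ctrl and 5147, 7732 and 8875 CPM with THC, a log2 difference of 0.27 ± 0.28 with overlapping groups. Within the samples numbered 28 to 39, which hold 2 of each group, it was 0.59 and past the criterion, at an adjusted p of 0.25 (limma). miR-221-3p was at 6620, 10246 and 7308 CPM in Ctrl and 4967, 10505 and 11038 CPM with THC (0.07 ± 0.34), with sample 25 the lowest of the 6. miR-132-3p, another miRNA induced by inflammatory signals, was at 812, 489 and 566 CPM in Ctrl and 451.4, 413 and 457 CPM with THC, so that every THC sample lay below every Ctrl sample, but by little in samples 28, 31, 34 and 37 (-0.47 ± 0.23, adjusted p 0.977 by limma). Without Ctrl sample 22 the difference was -0.26. Of the whole list of these miRNAs, 40 of 43 entries were tested, 22 with a higher and 18 with a lower estimate. The median log2 difference was 0.04, -0.0036 without Ctrl sample 22 and 0.21 in samples 28 to 39 alone. None passed the criterion, and 2 had an unadjusted p under 0.05, beside 46 of all 1363 features.

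Of the miRNAs of the myeloid lineage, 14 of 15 entries were tested, 7 with a higher and 7 with a lower estimate. Their median log2 difference was -0.0049, -0.11 without Ctrl sample 22 and 0.15 in samples 28 to 39 alone. miR-142-5p, specific to blood cells, was at 9472, 7520 and 7254 CPM in Ctrl and 9826, 9037 and 9508 CPM with THC (0.24 ± 0.16), and miR-142-3p at 2365, 1795 and 1631 CPM in Ctrl and 2623, 1798 and 1975 CPM with THC. Of the miR-34 and miR-449 families, 12 of 17 entries were tested, 10 with a higher and 2 with a lower estimate, and the median log2 difference was 0.59 (0.45 without Ctrl sample 22). These families share a seed and are known as brakes of Notch signaling and the cell cycle, the first being induced by p53.
miR-34a-5p: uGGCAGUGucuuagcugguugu
miR-449a-5p: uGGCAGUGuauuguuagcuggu
miR-449c-5p: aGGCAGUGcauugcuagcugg
miR-34a-5p was at 61.7, 78.7 and 55.9 CPM in Ctrl and 44.7, 82.6 and 94.6 CPM with THC, with a log2 difference of 0.12 ± 0.38. Most other members were near the limit of detection. miR-449a-5p had 0, 0 and 0 reads in Ctrl and 2, 0 and 1 with THC, the mir-34a hairpin 0, 1 and 1 against 3, 3 and 1, and miR-449c-5p 0, 0 and 2 against 6, 1 and 2. None of the 12 passed, and for features at such counts a 2-fold difference was not detectable. Over all features the median was 0.08, or -0.02 without Ctrl sample 22. miR-34b-3p, at 34.03, 42.7 and 34.95 CPM in Ctrl and 39.8, 48.4 and 56.7 CPM with THC, had a difference of 0.36 ± 0.41.

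The further features singled out in the study's text for THC were also low in these 6 samples. miR-451b, encoded opposite mir-451a, had 0, 1 and 0 reads in Ctrl and 4, 2 and 6 with THC. Every THC sample lay above every Ctrl sample, the log2 difference was 1.94 ± 0.69, and the adjusted p was 0.977 (limma). miR-3108-3p had 0, 2 and 2 reads in Ctrl against 4, 3 and 3 with THC, and the mir-29c hairpin 3, 1 and 8 against 7, 14 and 8. Neither passed. The mature miR-29c-3p, which represses collagen mRNAs, was at 183, 178 and 125 CPM in Ctrl and 151, 179 and 217 CPM with THC (0.18 ± 0.21). All 31 entries that the study tabulated were tested, 14 with a higher and 17 with a lower estimate, and their median log2 difference was -0.03 (5.7e-05 without Ctrl sample 22). These entries were chosen by the study on these same samples, so their count, 1 call (miR-5123), is no independent evidence.

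The remaining groups, most of them families that set the growth and differentiation of many cell types, gave 1 call, mir-141. The let-7 and miR-98 group had 32 entries tested of 33, 10 higher and 22 lower by estimate. Its median was -0.07 on the log2 scale, -0.06 without Ctrl sample 22 and 0.04 in samples 28 to 39 alone. Its most abundant member, let-7f-5p, was at 24319, 18435 and 14417 CPM in Ctrl and 17135, 18960 and 20299 CPM with THC, and the difference of let-7i-5p was -0.05 ± 0.13 and of let-7a-5p -0.12 ± 0.26. The miR-17~92 cluster and its paralogs had 36 entries tested of 43, 11 higher and 25 lower by estimate, and a median of -0.12 (-0.05 without Ctrl sample 22). Of these entries 4 had every THC sample below every Ctrl sample, beside 41 of all 1363 features (3.01%). Hairpins and arms of linked loci are not separate evidence. 1 of the 4 was the mir-92a-1 hairpin, at 4785, 4220 and 3831 CPM in Ctrl and 2834, 3510 and 3758 CPM with THC. miR-25-3p and miR-93-5p of this group had differences of -0.04 ± 0.15 and 0.0049 ± 0.35. Like let-7, which opposes growth, this growth-promoting cluster had no call. The miR-232724 clusters had 17 entries tested of 17, 8 higher and 9 lower by estimate. Their median was -0.01, -0.06 without Ctrl sample 22 and 0.21 in samples 28 to 39 alone. miR-27a-3p there had a difference of 0.09 ± 0.13 and miR-24-3p of 0.18 ± 0.32. The miR-15/16 group, which represses cyclins and Bcl2, had 18 entries tested of 19, 8 higher and 10 lower by estimate. Its median was -0.04, -0.04 without Ctrl sample 22 and 0.07 in samples 28 to 39 alone. The group includes miR-322-5p at 0.16 ± 0.22 and miR-15a-5p at 0.13 ± 0.15. The miR-29 group had 11 entries tested of 11, 9 higher and 2 lower by estimate, and a median of 0.18 (0.06 without Ctrl sample 22). None of its members passed, with miR-29a-3p at 0.19 ± 0.24 and miR-29a-5p at 0.16 ± 0.36.

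The miR-30 family had 17 entries tested of 17, 8 higher and 9 lower by estimate, and a median of -0.0025 (0.08 without Ctrl sample 22) on the same scale, with miR-30e-5p at -0.01 ± 0.26. The miR-181 family, which tunes signaling in lymphocytes, had 16 entries tested of 16, 8 higher and 8 lower by estimate. Its median was -0.04, -0.15 without Ctrl sample 22 and 0.03 in samples 28 to 39 alone. miR-181b-5p was at -0.16 ± 0.18 and miR-181a-1-3p at 0.30 ± 0.29. The miR-99, miR-100 and miR-10 group, with the mTOR mRNA among its targets, had 9 entries tested of 15, 6 higher and 3 lower by estimate, and a median of 0.38 (0.24 without Ctrl sample 22). Its most abundant member, miR-99a-5p, was at 1082, 2127 and 1342 CPM in Ctrl and 1076, 2314 and 2180 CPM with THC, a difference of 0.27 ± 0.37, and the rarer miR-100-5p and miR-99a-3p had 0.38 ± 0.73 and 0.45 ± 0.30. The groups overlapped in all 3, and without Ctrl sample 22 the difference was 0.06 for miR-99a-5p and -0.12 for miR-100-5p. The hypoxia and redox group had 9 entries tested of 16, 5 higher and 4 lower by estimate. Its median was 0.24, -0.31 without Ctrl sample 22 and -0.01 in samples 28 to 39 alone. miR-210-3p, the classical target of hypoxia-inducible factor, ranged more within the groups than between them, at 232, 1908 and 911 CPM in Ctrl and 180, 1927 and 1918 CPM with THC, and its 5p arm at 72.3, 347 and 170 CPM in Ctrl and 32.8, 313 and 293 CPM with THC. In both arms samples 22 and 25 were the lowest of their groups. The difference of miR-210-3p was 0.24, -0.59 without Ctrl sample 22 and 0.54 in samples 28 to 39 alone, so that its direction turned on which samples were kept. miR-28a-5p of that group had a difference of -0.12 ± 0.21.

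The miRNAs tied to THC in other immune models had 10 entries tested of 14, 7 higher and 3 lower by estimate. Their median was 0.42, -0.02 without Ctrl sample 22 and 0.12 in samples 28 to 39 alone. miR-18a-5p was at 1178, 860 and 1243 CPM in Ctrl and 1259, 830 and 979 CPM with THC. miR-145a-3p was at 983, 920 and 937 CPM in Ctrl and 680, 1079 and 1039 CPM with THC, and miR-18a-3p had a difference of -0.23 ± 0.25. In all 3 the groups overlapped. The reference miRNAs had 11 entries tested of 11, 7 higher and 4 lower by estimate, and a median of 0.07 (0.05 without Ctrl sample 22). Of these, miR-103-3p had a difference of 0.04 ± 0.23 and miR-107-3p of 0.07 ± 0.18. The miRNAs of neurons, astrocytes and oligodendrocytes had 21 entries tested of 34, 8 higher and 13 lower by estimate, and a median of -0.17 (-0.10 without Ctrl sample 22), led by miR-128-3p at 651, 446 and 516 CPM in Ctrl and 449, 454 and 504 CPM with THC, with miR-128-1-5p at -0.17 ± 0.29 and miR-338-3p at 0.47 ± 0.54. Those of epithelium, muscle, liver and red blood cells had 25 entries tested of 44, 16 higher and 9 lower by estimate, and a median of 0.10 (0.11 without Ctrl sample 22), with mir-141 the 1 call. miR-200b-3p and miR-429-3p of that group had differences of -0.28 ± 0.33 and 0.06 ± 0.41. Over all 1363 features 785 had a higher and 576 a lower estimate, with a median of 0.08, beside which these counts are to be read.

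The abundant features with the smallest p in the higher direction turned in most cases on Ctrl sample 22. mir-1961 was at 0, 103 and 244 CPM in Ctrl and 183, 204 and 119 CPM with THC, a log2 difference of 2.49 ± 1.59 that was 0.06 without that sample. miR-5109 was at 51.0, 1055 and 502 CPM in Ctrl and 972, 686 and 471 CPM with THC, with 1.17 and -0.10 in the same order. miR-5115, mir-1899, miR-6239 and mir-5105 had the same order, with the lowest of the 6 values in Ctrl sample 22, and their differences of 0.80 to 0.95 became -0.02 to 0.19 without it. The hairpins that take a large share of the library, with their mature entries, had 12 entries tested of 12, 7 higher and 5 lower by estimate, and a median of 0.60 (-0.14 without Ctrl sample 22). Of them miR-6243 moved from 1.45 to -0.02 and miR-6240 from 0.97 to -0.03, while miR-3096b-3p stayed at 0.24. miR-30d-3p did not share this pattern. It was at 364, 243 and 212 CPM in Ctrl and 374.9, 333 and 355 CPM with THC, with Ctrl sample 22 the highest of its group, and the difference of 0.41 ± 0.23 became 0.64 without it. In samples 28 to 39 alone it was 0.60 and past the criterion, at an adjusted p of 0.25 (limma).

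**Figure D3:**
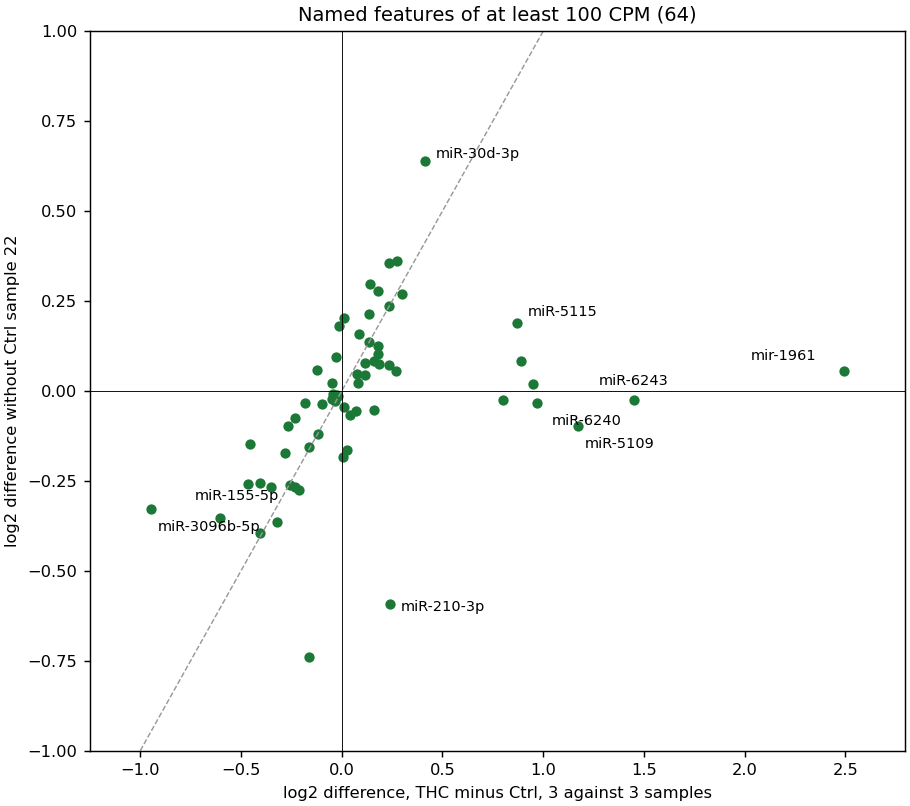
Log2 difference, THC minus Ctrl, of the 64 named features of at least 100 CPM (points), with all 6 samples on the horizontal axis and without Ctrl sample 22 on the vertical axis, with equality dashed. A group of points between 0.80 and 2.49 on the horizontal axis, mir-1961 farthest, lies near 0 on the vertical axis.

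In the lower direction, besides miR-155-5p and miR-132-3p, the mir-5117 hairpin was at 1114, 1216 and 1228 CPM in Ctrl and 811, 945 and 1113 CPM with THC, with every THC sample below every Ctrl sample by at least a narrow margin and a difference of -0.32 ± 0.15. miR-361-3p had the same separation at 179, 164 and 185 CPM in Ctrl and 127, 138.1 and 132 CPM with THC (-0.41 ± 0.21), and its difference without Ctrl sample 22 was -0.39. miR-3096b-5p, at 461, 145 and 110 CPM in Ctrl and 90.5, 118 and 94.6 CPM with THC, miR-423-5p, at 4553, 2440 and 2344 CPM in Ctrl and 2029, 2068 and 2403 CPM with THC, and mir-351, at 1044, 648 and 906 CPM in Ctrl and 683, 608 and 635 CPM with THC, had their highest value in Ctrl sample 22. Their differences of -0.95, -0.46 and -0.41 became -0.33, -0.15 and -0.26 without it. All of these had an adjusted p of 0.977 (limma).

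THC and CBD were given at the same 10 μM for the same time. They are isomers that differ in a ring, closed to a pyran in THC and open in CBD, which instead carries a further free hydroxyl group. Between the THC and the CBD samples of resting cells, 45 features passed the criterion (3.30%), 27 higher and 18 lower with THC, and 7 passed at an adjusted p of 0.1 (0.514%). With a covariate for samples 22 to 27, 55 passed the criterion and 58 an adjusted p of 0.1, and in samples 28 to 39 alone, which hold CBD samples 30 and 36 without 24, 158 and 267 did. All 7 were among those at an adjusted p of 0.1 in both fits (limma). Scaling to miR-103-3p and miR-191-5p, which moved the median difference of all features from 0.08 to 0.305, gave 34 higher and 4 lower, and library size alone gave 24 and 9. Of the 7, 6 were lower with THC. The mir-3096b hairpin was at 1674, 2098 and 1999 CPM with THC, 3536, 5434 and 4912 CPM in CBD samples 24, 30 and 36, and 2261, 2208 and 2388 CPM in Ctrl, with a log2 difference of THC from CBD of -1.25 ± 0.17 (adjusted p 0.00107, limma). The mir-3096a hairpin was at 550, 744 and 727 CPM with THC and 1077, 1619 and 1551 CPM with CBD (-1.06 ± 0.19, adjusted p 0.0168). In both, every CBD sample lay above every THC and every Ctrl sample. The 2 hairpins bear the same number, and how reads were divided between them is not given, so that they are not separate evidence.

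miR-155-5p was at 659, 499 and 596 CPM with THC and 1024, 1292 and 1407 CPM with CBD, without overlap (-1.08 ± 0.22, adjusted p 0.0355, limma), while the Ctrl samples, at 1248, 598 and 919 CPM, spanned both. The mir-155 hairpin had a difference of -1.003 ± 0.25 (adjusted p 0.120) and miR-155-3p of -0.32 ± 0.31 (adjusted p 0.691). mir-5117 was at 811, 945 and 1113 CPM with THC and 1543, 1607 and 1644 CPM with CBD (-0.75 ± 0.15, adjusted p 0.0355). The mir-181b-1 hairpin, at 137, 149 and 141.8 and 568, 353 and 316 CPM, had -1.48 ± 0.31 (adjusted p 0.0369), with its Ctrl samples at 119, 161 and 119 CPM, close to THC. miR-6384 had 5, 0 and 0 reads with THC against 31, 16 and 15 with CBD (-4.17 ± 0.80, adjusted p 0.0319). In the other direction stood the mir-669o hairpin, with 6, 4 and 3 reads with THC and 0, 0 and 0 with CBD (2.55 ± 0.57, adjusted p 0.0596).

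**Figure D4:**
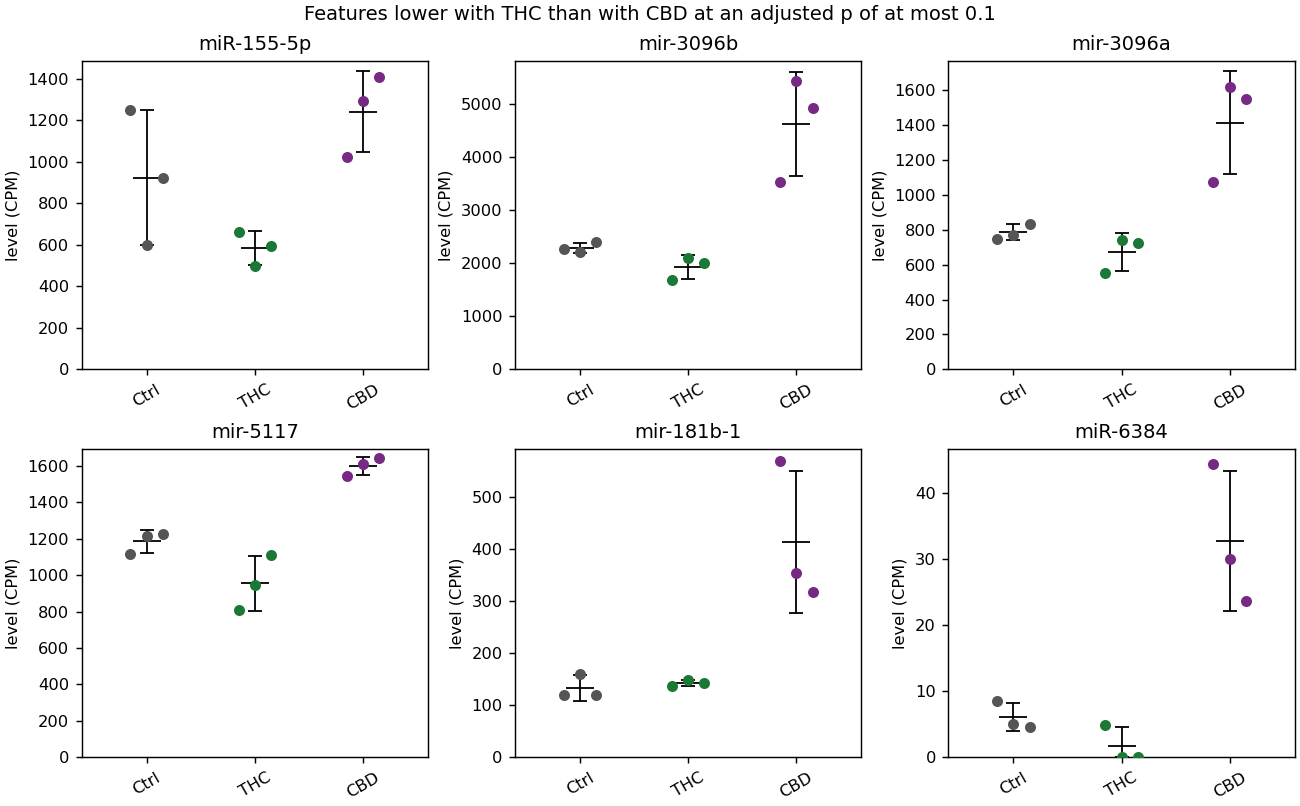
Level (CPM) in the 3 samples (points) of Ctrl, THC and CBD, with the mean (bar) and SD, of the 6 features lower with THC than with CBD past an adjusted p of 0.1. In each panel every CBD point lies above every THC point.

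The hairpins mir-6243, mir-6240 and mir-6236 took 1.80% to 4.56% of the reads with THC and 1.67%, 0.160% and 0.151% with CBD. Of the 27 features higher with THC, 0 remained past the criterion with the summed level of these hairpins as a covariate, and of the 18 lower with THC, 8 did. With each of the 6 samples left out in turn, mir-3096b kept an adjusted p of at most 0.1 in 6 of 6 fits, mir-3096a in 5, miR-6384 in 3, miR-155-5p, mir-5117 and mir-181b-1 in 2 and mir-669o in 1. With that covariate, mir-3096b, miR-6384 and mir-181b-1 had an adjusted p of 0.0219 each, while 4 of the 7 no longer passed (limma), mir-3096a at 0.159, mir-5117 at 0.228, miR-155-5p at 0.324 and mir-669o at 0.361. By edgeR's quasi-likelihood test mir-669o, at an adjusted p of 0.154, was the 1 of the 7 above 0.1. Of the miR-34 and miR-449 features named above, the rare ones had fewer reads with THC than with CBD. The more abundant miR-34a-5p and miR-34b-3p were not lower, with log2 differences of THC from CBD of 0.14 ± 0.38 and 0.03 ± 0.41. miR-449a-5p had 2, 0 and 1 reads against 3, 2 and 6, and mir-34a 3, 3 and 1 against 7, 3 and 6, with adjusted p of 0.212 and 0.187 (limma), which do not pass. For 164 of the 252 features of at least 100 CPM the 95% interval of the difference between the compounds lay within 2-fold of no difference.

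Whether the difference made by THC was the same in resting and in activated cells was tested by the interaction of THC with LPS. No feature reached an adjusted p of 0.1 (0.00% of 1363, smallest 0.652, limma), 51 had an unadjusted p under 0.05, and 6 met the criterion (0.440%). edgeR's quasi-likelihood test and DESeq2 gave 0 at an adjusted p of 0.1 as well, with 42 and 20 features at an unadjusted p under 0.05. THC+LPS sample 27 resembled Ctrl sample 22: mir-6243, mir-6240 and mir-6236 took 0.361% of its reads, against 2.10% and 2.43% in the other THC+LPS samples. Both samples enter the interaction with the same sign. The median interaction over all features was -0.13, -0.06 without Ctrl sample 22, -0.11 without THC+LPS sample 27 and 0.01 in samples 28 to 39 alone. For miR-155-5p the interaction was 0.50 ± 0.31 and for miR-146a-5p -0.28 ± 0.39 on the log2 scale, with 95% intervals of -0.16 to 1.15 and -1.11 to 0.55 that include 0. Among THC+LPS and LPS samples, 3 features passed the criterion and 0 an adjusted p of 0.1 by limma.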

How the data were processed

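Small RNA of 18 BV-2 samples was sequenced, 3 in each of 6 groups, and samples were grouped by their titles. By the study's methods the authors aligned reads to the mouse miRBase with BWA, with up to 10 mappings allowed for a read, and counted the reads that fell on known miRNAs. How reads were divided between a hairpin and its mature entries, the counting tool and the miRBase version of the alignment are not given in the sources used here. The values the authors deposited are CPM scaled by TMM factors. Where TMM factors below 1 carry a sample's sum past a plain CPM total, the deposited values were recorded as a scaled signal, although the quantity is the same. Division by the smallest non-zero value of a file gave whole reads for 100% of the values (within 0.001 reads). These summed to between 442718 and 1057147 per sample. A floor of 3 reads covers counting error only, because PCR copies of 1 molecule are counted again.

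Features reaching 10 reads in the 18 samples together were tested on log2(CPM + 1) with limma 3.58.1 (mean-variance trend, 6 groups in 1 model, R 4.3.3), so that fold changes of low features depend on the pseudocount of 1. Adjusted p-values are Benjamini-Hochberg values over all tested features, and tests were 2-sided. edgeR 4.0.16 and DESeq2 1.42.0 were run on the recovered reads. The fits were tested on simulated data. RefSeq names matched 1027 of the 1279 mature entries. Named features were those past the criterion, the 8 with the smallest p in each direction at a mean of at least 100 CPM over 18 samples, the 10 most abundant mature miRNAs, the 3 most abundant of each of 18 lists, those the study's text names for THC, and those at an adjusted p of 0.1 against CBD. Hairpins and other arms of the called features and of miR-155-5p were added after values were seen. The members, lists and tests were chosen with earlier results of these data known.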

Additional observations from a re-analysis of the deposited data

Results flagged for a closer look

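7 features differed between the effects of THC and CBD in resting cells by a direct test of the compounds, at an adjusted p of at most 0.1 (limma). Their log2 differences of THC from CBD were -1.25 for mir-3096b, -1.06 for mir-3096a, -4.17 for miR-6384, -0.75 for mir-5117, -1.08 for miR-155-5p, -1.48 for mir-181b-1 and 2.55 for mir-669o. In all 7 the 3 samples of one compound lay on 1 side of the 3 samples of the other. The 7 were selected on these same samples, so this adds no evidence. With the composition covariate mir-3096a, mir-5117, miR-155-5p and mir-669o no longer passed. Only mir-3096b passed with each sample left out in turn. miR-6384 and mir-669o rest on few reads, with 5, 0 and 0 and 6, 4 and 3 reads in the THC samples.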

How the results depend on the processing

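The count of 6 features for THC against Ctrl was 0 with filterByExpr (645 features, all 6 called ones being below its minimum) and with DESeq2, 1 with edgeR's quasi-likelihood test and with hairpins alone, 2 with the composition covariate, 3 with the groups compared alone, 10 without the mean-variance trend and 13 in samples 28 to 39 alone. The 13 shared 2 features, mir-141 and miR-127-3p, with the 6. With each sample left out the count was 4 to 6. With at least 1 read as the filter (2039 features), 2 features reached an adjusted p of 0.1 (limma), and with every other alternative 0 did. The 5 seed families became 3 with a pseudocount of 2 or the covariate for samples 22 to 27, 8 without the trend and 2 to 6 with a sample left out, the lowest without Ctrl sample 22. The interaction of THC with LPS stayed at 0 features in each alternative. The 45 features for THC against CBD became 23 with filterByExpr, 19 with the composition covariate or mature miRNAs alone, 24 with hairpins alone and 158 in samples 28 to 39 alone. They became 18 to 88 with a sample left out: 88 without CBD sample 24, 25 without THC sample 25, 21 without CBD sample 30, 19 without THC sample 31 and 18 without CBD sample 36. The cause was not tested. Of 120 alternative values of the 6 called features, 50 missed the criterion and 0 changed sign. For the features without a Ctrl read a change of sign was nearly impossible, so the latter is no evidence of stability. No paired analysis was run because the groups share no replicate number in the labels. The sample numbers run through the 6 groups in the same order each time, but the labels do not say that samples of a run belong together. The nearest fit that was run, with a covariate for samples 22 to 27, gave 5 features for THC against Ctrl and 55 for THC against CBD. There 58 reached an adjusted p of 0.1 for THC against CBD in place of 7, and 0 did for the interaction (limma). Depth limits the features under 5 CPM most.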
